A study of Mus musculus with 2 samples.

Results

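The Sox genes encode transcription factors that share an HMG box, a DNA-binding domain that bends the minor groove at short A/T-rich sites. A set of 10 members was followed here, Sox2, Sox3, Sox4, Sox5, Sox6, Sox8, Sox9, Sox10, Sox11 and Sox17, in whole limb buds of Bhlha9 knockout (KO) and wild-type (WT) mouse embryos. They were taken by gene name: every probe set annotated with 1 gene symbol, that of a member, was kept and read separately. This gave 37 probe sets for the 10 genes, out of 34945 single-symbol probe sets for 18193 genes on the array.

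Both groups were E10.5 embryos of the C57BL/6 line, 1 array of KO and 1 array of WT limb bud RNA on the Affymetrix Mouse Genome 430 2.0 platform. Bhlha9 encodes a basic helix-loop-helix factor of the early limb, and the comparison asks which limb bud transcripts differ when it is missing. How the knockout allele was made, how many embryos gave the RNA and in what proportion fore and hind limbs entered it is not given in the sources used here. With 1 array per genotype there is no replicate check and no test, so "higher" and "lower" describe these 2 arrays, whose number limits the precision.

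Sox proteins are grouped by their HMG box, and the groups act in different lineages. Sox2 and Sox3 (group B1) keep neural progenitors undifferentiated, and Sox4 and Sox11 (group C) act in early neurons and in progenitors of embryonic mesenchyme. Sox5 and Sox6 (group D) lack a transactivation domain of their own and work beside Sox9 in cartilage, while Sox8, Sox9 and Sox10 (group E) serve neural crest, glia and, for Sox9, the mesenchymal condensations that become the limb skeleton. Sox17 (group F) specifies endoderm and takes part in blood vessel formation. In the limb bud at this stage, Sox9 marks skeletal progenitors, whereas Sox2 and Sox3 are known mainly from the neural tube and sensory placodes.

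The signals are MAS 5.0 intensities on a linear scale, 1 value per probe set and array, scaled by the authors. A signal was treated as detected above the 40th percentile of its array, 41.8 on the KO array and 41.2 on the WT array, and lower signals were raised to this floor before a ratio was taken. The log2 ratio is KO over WT. Where 1 array lay under the floor the ratio is a bound, and where both did none was given. Of the 37 Sox probe sets, 26 were detected on both arrays, 2 on the KO array alone, 0 on the WT array alone and 9 on neither. The share detected on at least 1 array was 75.7%, against 69.1% of all single-symbol probe sets. Each of the 10 genes had at least 1 detected probe set. Brightness also depends on the probes, so no probe set's level is set against another's.

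Both arrays had 45101 probe sets and a 2% trimmed mean of 500.0, with median signals of 77.3 on the KO array and 79.6 on the WT array. The robust SD of the log2 ratio over probe sets detected on both arrays was 0.34 in the fifth with the highest signal and 0.58 in the fifth with the lowest, and these values include any true differences. The single probe set of Bhlha9 itself read 1.70 on the KO array and 7.87 on the WT array, under the floor on both, so it did not check the labels. Of 20 genes of limb mesenchyme, a part of the labelled limb bud, all 20 were detected on at least 1 array and 18 on both. Over all 18193 genes, 13088 were detected on at least 1 array and 11491 on both. Detection of limb genes does not show that other tissue was absent. Prrx1, a homeobox gene of early limb mesenchyme that was named outside the rule for list genes and after its values were seen, read 6189 on the KO array and 7757 on the WT array.

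Sox2 was higher on the KO array, Sox3 was higher by the 1 of its probe sets that was detected there, and groups C and F lay near zero. In groups D and E every ratio measured on both arrays was negative on the deposited scale, though some of Sox6 turned positive under other scalings. At a threshold of 2-fold, 2 of the 28 detected Sox probe sets were higher, those of Sox2 and Sox3, and 2 were lower, both of Sox5. These are 7.14% in each direction. The same calls made up 3.38% in the higher and 3.89% in the lower direction of all 24162 single-symbol probe sets detected on at least 1 array. With 2 probe sets in each direction, these shares say little about the members as a group. Among the 26 Sox probe sets detected on both arrays, 9 ratios were positive and 17 negative, with a median log2 ratio of -0.12 and a range from -1.63 to 2.71. The median of all 20895 probe sets detected on both arrays was -0.04. For 17 of the 26 the ratio was smaller than the robust SD of probe sets of similar signal.

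**Figure D1:**
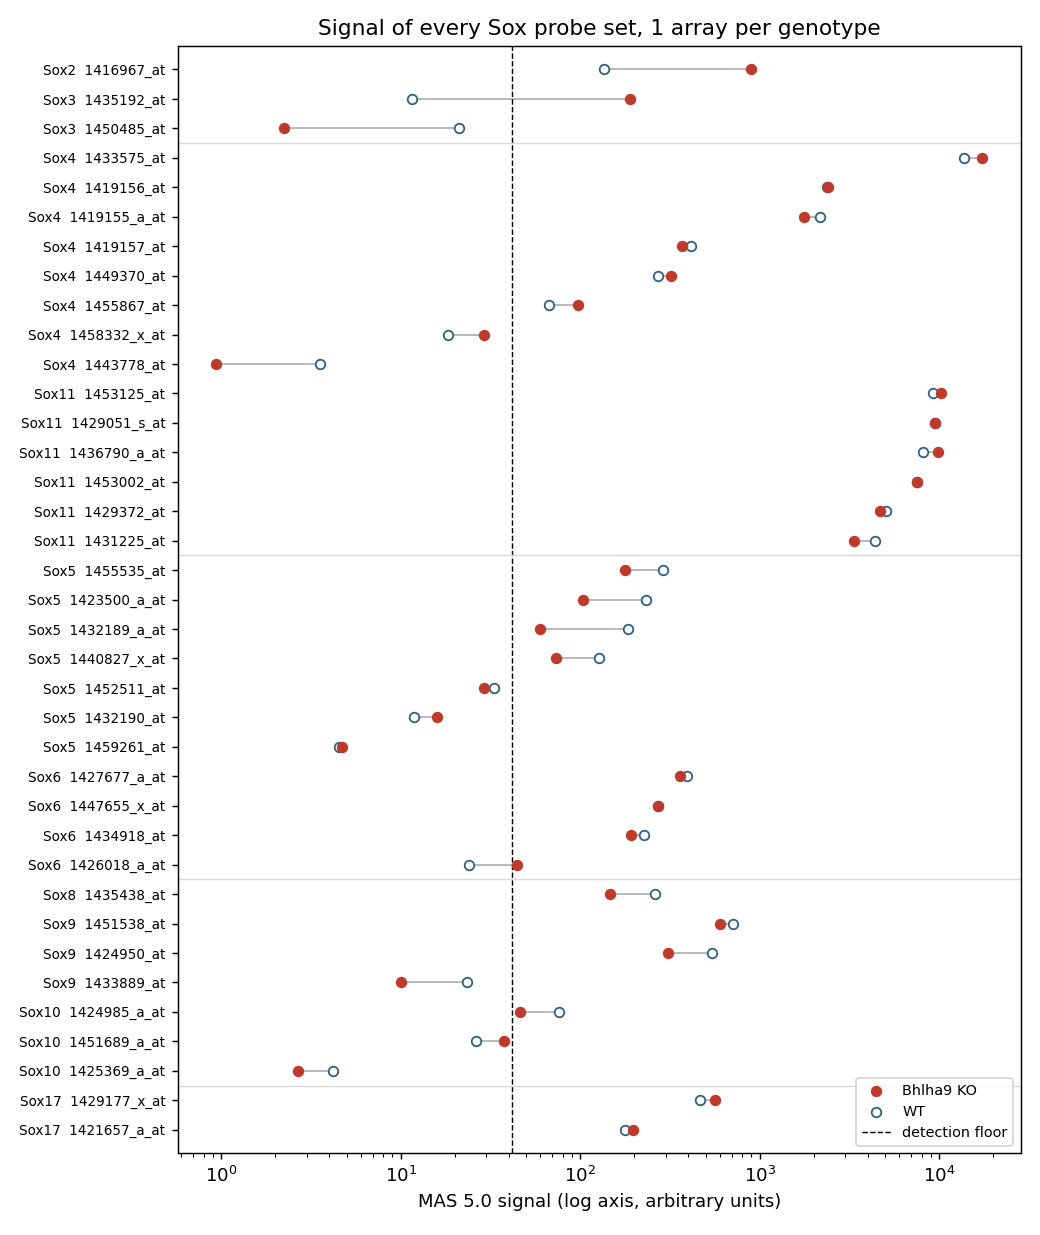
MAS 5.0 signal (log axis, arbitrary units) of each of the 37 Sox probe sets on the KO array (filled red) and the WT array (open blue), 1 array each, with grey lines between Sox groups B1, C, D, E and F from top to bottom. The dashed line is the KO floor of 41.8, and the WT floor of 41.2 lies beside it; Sox2 read 889.7 on the KO array and 136.4 on the WT array, and the Sox11 pairs nearly coincide.

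The promoters of Sox2 and Sox5 are shown because these genes carry the largest differences in each direction among members detected on both arrays. Each runs from 250 bases before to 50 bases after a RefSeq start site on GRCm38.p6. Sox2 lies at chr3:34649745-34650044 on the + strand, and Sox5 at chr6:143947057-143947356 on the - strand, where the listed start lies inside the annotated gene and not at its outermost 5′ end. Capitals mark the E-box CANNTG, the core bound by basic helix-loop-helix factors as a class, and the Sox motif ACAAAG, on either strand.
Sox2: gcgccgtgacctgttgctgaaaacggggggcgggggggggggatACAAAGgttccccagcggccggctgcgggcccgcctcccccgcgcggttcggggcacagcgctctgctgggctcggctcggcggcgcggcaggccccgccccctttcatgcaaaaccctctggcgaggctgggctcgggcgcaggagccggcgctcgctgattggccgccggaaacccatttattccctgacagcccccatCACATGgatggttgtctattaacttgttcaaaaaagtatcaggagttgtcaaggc
Sox5: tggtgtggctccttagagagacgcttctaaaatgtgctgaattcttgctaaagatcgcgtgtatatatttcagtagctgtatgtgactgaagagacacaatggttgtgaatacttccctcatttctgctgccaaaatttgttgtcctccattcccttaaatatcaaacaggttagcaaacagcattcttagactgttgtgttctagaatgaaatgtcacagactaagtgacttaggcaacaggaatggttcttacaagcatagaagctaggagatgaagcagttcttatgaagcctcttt
The Sox2 promoter held 1 ACAAAG at position 45 and 1 E-box at position 246, counted from 1 at the 5′ end, and the 2 do not overlap. The Sox5 promoter held 0 matches to either motif. A second Sox motif, AACAAT, was found in neither. Among 32851 promoters of the same length, 72.3% held an E-box, 18.7% ACAAAG and 10.7% AACAAT on either strand. Promoter sequences were matched for 6 of the 10 members. The E-box was also present in the promoters of Sox4, Sox8 and Sox11 and in all 6 listed for Sox6. A match is a run of letters in the window and does not show binding.

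Sox2, a factor that maintains neural progenitors, had the highest ratio of the members detected on both arrays. Its only probe set, 1416967_at, read 889.7 on the KO array and 136.4 on the WT array. The signal was thus 6.52-fold higher on the KO array, a log2 ratio of 2.71, which is above 99.9% of all probe sets detected on both arrays. The robust SD in its signal range was 0.49.

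Sox3, the X-linked relative of Sox2 with much the same role in neural progenitors, was read by 2 probe sets that disagree. Probe set 1435192_at gave 190.0 on the KO array and 11.6 on the WT array, where it was under the floor, so Sox3 was at least 4.61-fold higher by this probe set. Probe set 1450485_at gave 2.26 on the KO array and 21.2 on the WT array, under the floor on both, and has no ratio. Being detected on the KO array alone, the first probe set could only have a positive ratio. The B1 genes therefore differ in how well they were measured: Sox2 on both arrays by 1 probe set, and Sox3 on 1 array by 1 of 2.

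Part of the genes of neural lineages were higher on the same array. Among neural progenitor genes 16 were detected, 7 of them past 2-fold in the higher direction and 0 in the lower, and the higher count was 11 of 17 for a floor at the 30th percentile and 2 of 10 at the 60th. Over all 13088 genes detected with the floor at the 40th percentile, each read by its brightest probe set, 4.15% passed 2-fold in the higher direction. In the lower direction 2.65% did. Over all detected probe sets, the higher share was 5.95% at the 30th percentile and 1.37% at the 60th. The neural progenitor median log2 ratio was 0.72, against 0.01 over all detected genes, but 8 of the 16 were detected on the KO array alone. Among the 8 detected on both arrays, 4 ratios were positive and 4 negative, with a median of -0.03. Those detected on both arrays included Fabp7, which binds fatty acids in radial glia, at 951.8 on the KO array and 56.2 on the WT array. Pou3f3, a POU-domain factor of the developing brain, was 3.90-fold higher and Zic1, a zinc finger factor of the dorsal neural tube, was 3.02-fold higher. Fabp7, Pou3f3 and Zic1 were the only 3 of the 7 measured on both arrays, and the 4 genes with negative ratios are not named here. The proneural factors Neurod1 and Neurog2 were at least 5.37-fold and at least 5.20-fold higher. Both were detected on the KO array alone, so the sign of their ratios was fixed by detection. The part of neural tissue in the Sox2 and Sox3 readings was not tested. In bulk tissue, a different number of cells of a type and a different amount of RNA per cell cannot be told apart.

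Sox4 and Sox11, the group C factors that promote neuronal differentiation and progenitor survival, gave ratios near zero. Sox11 had 6 probe sets, all detected on both arrays, with ratios from -0.39 to 0.28 and a median of -0.003. Its brightest, 1453125_at, read 10251 on the KO array and 9190 on the WT array, and 1453002_at read 7514 on the KO array and 7522 on the WT array. Of the 6 ratios, 2 were positive and 4 negative, so the probe sets of Sox11 do not share a direction.

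For Sox4, 6 of 8 probe sets were detected on both arrays, with ratios from -0.30 to 0.54 and a median of 0.14. The brightest, 1433575_at, read 17354 on the KO array and 13713 on the WT array, a log2 ratio of 0.34. The next, 1419156_at, read 2412 on the KO array and 2359 on the WT array, and 1419155_a_at read 1766 on the KO array and 2168 on the WT array. Of the 6, 4 ratios were positive and 2 negative, and the highest, 0.54, belonged to the dimmest, 1455867_at, at 97.4 on the KO array and 67.1 on the WT array. No probe set of either gene passed 1.5-fold.

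The early neuron genes, among which group C factors act, had a different range of ratios. Among 12 detected genes, 8 passed 2-fold in the higher direction and 0 in the lower. Their median log2 ratio was 1.69, also over the 10 detected on both arrays. Of those 10, 9 ratios were positive and 1 negative. The negative one was that of Dcx, at 331.1 on the KO array and 480.6 on the WT array. Nefl was 7.91-fold higher and Nefm 6.49-fold, both encoding neurofilament subunits, and Stmn2, a microtubule regulator of growing axons, read 530.2 on the KO array and 86.4 on the WT array. Ina, a further neuronal intermediate filament, was at least 4.81-fold higher, and the RNA-binding protein gene Elavl3 at least 2.60-fold. Sox4 and Sox11 are also expressed in many non-neural progenitors, and the share of neurons in their signal was not tested.

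**Figure D2:**
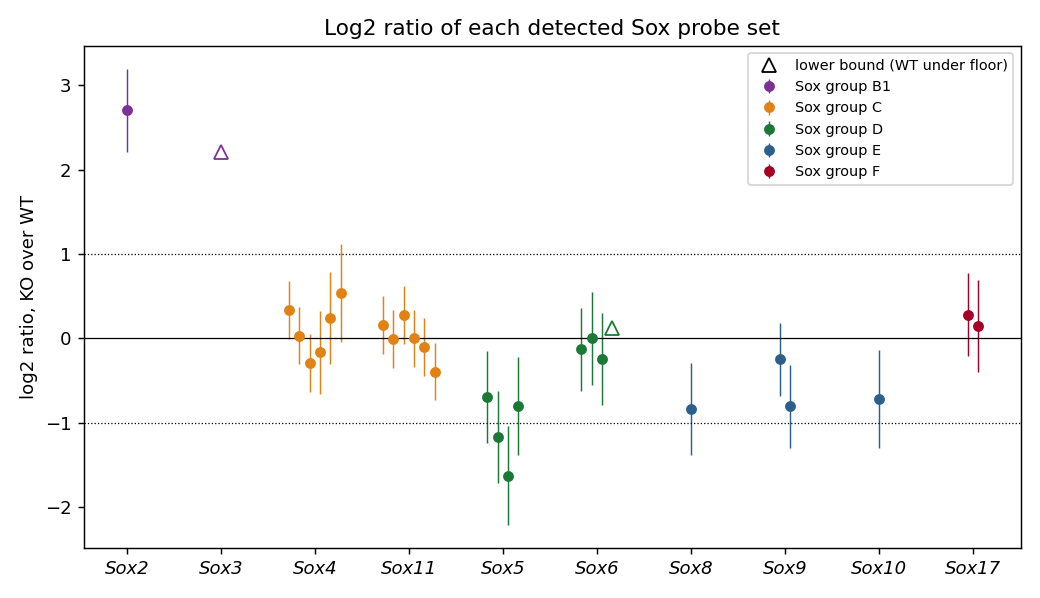
Log2 ratio of KO over WT (vertical axis) for the 28 Sox probe sets detected on at least 1 array, by gene and coloured by Sox group, with bars of 1 robust SD over all probe sets of similar signal. Open triangles are lower bounds with the WT signal under the floor, and dotted lines mark 2-fold; the Sox2 point at 2.71 and the Sox3 bound at 2.21 stand above the upper line, and the 4 Sox5 points lie between -1.63 and -0.69.

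Sox5, which with Sox6 secures the binding of Sox9 at cartilage enhancers, was lower by every probe set detected on both arrays. Probe set 1432189_a_at read 60.05 on the KO array and 185.9 on the WT array, 3.10-fold lower. Probe set 1423500_a_at read 103.4 on the KO array and 232.9 on the WT array, 2.25-fold lower. These 2 are the Sox5 readings past 2-fold. The brightest, 1455535_at, read 178.2 on the KO array and 288.4 on the WT array, a log2 ratio of -0.69, and 1440827_x_at read 73.1 on the KO array and 127.2 on the WT array, a ratio of -0.80. All 4 KO signals were lower than their WT signals, with a median ratio of -0.99. The ordinary SD of the 4 ratios was 0.42. A robust SD of 0.28 for 1 ratio came from the brightest pair of probe sets in each of 5440 genes. These are different measures, and brighter probe sets had a smaller spread. Over all probe sets with signals similar to these 4, the robust SD was 0.55 or 0.58. Whether the Sox5 probe sets disagree more than is usual was not tested. The other 3 Sox5 probe sets were under the floor on both arrays.

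With the floor raised to the 60th percentile, 0 Sox5 probe sets passed 2-fold, and the ratio of 1432189_a_at became a bound at -0.28. Probe sets of 1 gene share the same RNA and are not replicates of the genotype.

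Sox6, the group D partner of Sox5, which also acts in red cell and muscle precursors, stood closer to zero. Probe set 1427677_a_at read 361.2 on the KO array and 395.8 on the WT array, a log2 ratio of -0.13. Probe set 1447655_x_at read 272.6 on the KO array and 273.1 on the WT array, and 1434918_at read 191.9 on the KO array and 227.7 on the WT array, a ratio of -0.25. The fourth, 1426018_a_at, was just above the floor at 44.7 on the KO array and under it at 24.0 on the WT array, and was at least 1.09-fold higher. The 3 probe sets measured on both arrays lay between -0.25 and -0.003, above all 4 ratios of Sox5. No test of that difference between the genes is possible with 1 array a group. Of 10 primitive red cell genes, all detected on both arrays, 1 passed 2-fold in the higher direction and 0 in the lower, and the median was 0.29. That gene was Klf1, an erythroid zinc finger factor, at 450.9 on the KO array and 222.5 on the WT array.

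Sox9, the master regulator of cartilage formation, had negative ratios of differing size. Probe set 1451538_at read 599.0 on the KO array and 712.7 on the WT array, a log2 ratio of -0.25. Probe set 1424950_at read 308.9 on the KO array and 540.5 on the WT array, a ratio of -0.81 or 1.75-fold lower. The third, 1433889_at, was under the floor on both arrays. The detected ratios thus differ by 0.56. Across 5440 genes with at least 2 probe sets detected on both arrays, the difference between the brightest pair had a robust SD of 0.40.

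Cartilage genes, several of them direct targets of Sox9, Sox5 and Sox6, did not pass 2-fold in either direction. Of 11 detected, 7 were measured on both arrays, 4 with positive and 3 with negative ratios. Col2a1, the collagen of cartilage, read 744.3 on the KO array and 478.7 on the WT array, a ratio of 0.64, and Hapln1, a link protein of cartilage matrix, was at 0.68. Wwp2, a ubiquitin ligase whose gene holds a microRNA of cartilage, was at -0.51. Acan, encoding aggrecan, was under the floor on the KO array at 18.9 and read 64.9 on the WT array, at least 1.55-fold lower. The median of the 11 was 0.15. Cartilage genes thus had ratios of both signs, while the measured ratios of Sox5 and Sox9 were negative.

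Sox8 and Sox10, the other group E members, also had negative ratios under 2-fold. Sox8, expressed in neural crest derivatives and the gonad, read 146.6 on the KO array and 261.4 on the WT array by its only probe set, 1435438_at, a log2 ratio of -0.83. Sox10, required for glia and pigment cells of the neural crest, read 46.5 on the KO array and 76.6 on the WT array by 1424985_a_at, a ratio of -0.72. The KO signal of Sox10 is close to the floor. The other 2 Sox10 probe sets were under the floor on both arrays, and 1 of them, 1451689_a_at, was higher on the KO array at 37.8 than on the WT array at 26.2.

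Most neural crest and glia genes measured on both arrays did not share the sign of Sox8 and Sox10. The list had 11 detected genes, 3 past 2-fold in the higher and 0 in the lower direction. Of the 10 measured on both arrays, 8 ratios were positive and 2 negative, with a median of 0.30. The negative ratios were those of Ngfr at -0.57 and Gfra3 at -0.11. Ret, a receptor of enteric and autonomic precursors, read 256.4 on the KO array and 51.5 on the WT array. Ednrb, the endothelin receptor of melanoblasts and enteric precursors, was 2.53-fold higher and Erbb3, the neuregulin receptor of Schwann cell precursors, was 2.36-fold higher. Foxd3, a factor of premigratory crest, was at 29.2 on the KO array and 42.0 on the WT array, at the edge of the floor. Somite and sclerotome genes, from a tissue that also expresses Sox9, passed 2-fold in the higher direction for 2 of 8 genes and in the lower for 0. These were Foxc2, a forkhead factor, at 2.71-fold and Uncx, a homeobox factor of the posterior somite half-segments, at 2.20-fold.

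Across groups D and E, all 11 probe sets detected on both arrays had a negative ratio on the deposited scale, with a median of -0.72, while 53.3% of all probe sets did. The 11 come from 5 genes and were grouped after their values were seen. With each array centred on its median, 10 of the 11 were negative, and after quantile or cyclic loess normalization 9 of 11 were, the exceptions being probe sets of Sox6. The floor also bears on this count: 12 of 14 were negative with a median of -0.47 for a floor at the 30th percentile, and 6 of 6 with a median of -0.25 at the 60th. Without a floor, on log2(signal + 32), 14 of 18 were negative and the median was -0.23. Centring moved the median of all probe sets detected on both arrays to 0.08 from -0.04 on the deposited scale.

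Limb mesenchyme genes mostly had negative ratios too, 16 of the 18 measured on both arrays. On this list of 20, 7 passed 2-fold in the lower direction and 0 in the higher, and the median was -0.78. Lmx1b, the dorsal limb determinant, read 200.0 on the KO array and 758.5 on the WT array, and Msx1 and Lhx9, homeobox genes of the distal bud, were 2.59-fold and 2.52-fold lower. The summed signal of the list was 31551 on the KO array and 48013 on the WT array. This sum is weighted to the brightest probe sets and is not an amount of limb mesenchyme. Of 12 detected ectoderm genes, 7 passed 2-fold in the higher direction and 0 in the lower, among them the adhesion gene Cdh1 at 3.28-fold. The median of the 12 was 1.18. Of the 11 measured on both arrays, 10 ratios were positive and 1 negative, that of Krt8 at -0.11. Fgf8 was at 0.15, with 492.1 on the KO array and 444.9 on the WT array. The part of these tissue markers in the Sox5, Sox8, Sox9 and Sox10 readings was not tested.

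Sox17, a factor of endoderm and of arterial endothelium, differed by less than the robust SD for its signal. Probe set 1429177_x_at read 567.1 on the KO array and 466.9 on the WT array, a log2 ratio of 0.28. Probe set 1421657_a_at read 197.8 on the KO array and 178.6 on the WT array, a ratio of 0.15. Both were slightly higher on the KO array.

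The endoderm and liver list and the endothelial list mostly had ratios in opposite directions. Endoderm and liver genes passed 2-fold in the higher direction for 9 of 12 detected and in the lower for 0, with Afp, the fetal serum protein, at 19084 on the KO array and 17.7 on the WT array and Ttr, a thyroxine carrier, at 4179 on the KO array and 5.23 on the WT array. Of these 12, 9 lay under the floor on the WT array, which leaves room for a positive ratio and no other. The other 3 were measured on both arrays, and their median was 0.77, against 2.60 over all 12. These were the apolipoprotein gene Apoa2, 24.0-fold higher, and the transcription factor genes Hhex, 1.70-fold higher, and Gata6, 1.20-fold higher. Endothelial genes passed 2-fold in the lower direction for 2 of 17 detected and in the higher for 0, and 13 of the 16 measured on both arrays had negative ratios. The lower genes were Kdr, the main VEGF receptor, at 624.9 on the KO array and 1326 on the WT array, and Tie1, an endothelial receptor kinase, at least 2.69-fold lower. The endothelial median was -0.45. How much of the Sox17 signal came from either tissue was not tested.

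**Figure D3:**
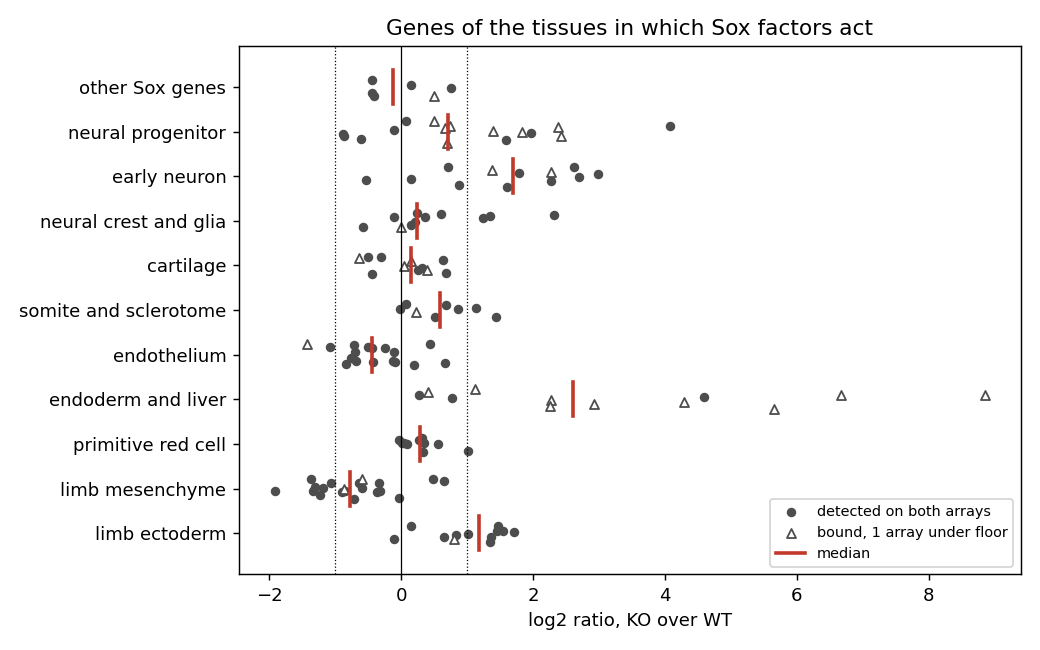
Log2 ratio of KO over WT (horizontal axis) for the detected genes of 11 lists, each gene by its brightest probe set, with filled points for genes detected on both arrays, open triangles for bounds and a red bar for the median over both kinds. Dotted lines mark 2-fold; the medians run from -0.78 for limb mesenchyme to 2.60 for endoderm and liver.

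Among the remaining 9 Sox genes on the array, 6 were detected on at least 1 array, and 0 passed 2-fold in either direction by their brightest probe set. Sox21, a group B factor that acts against Sox2 in neural progenitors, read 168.5 on the KO array and 99.5 on the WT array, a log2 ratio of 0.76. Sox1, the third B1 gene, read 57.9 on the KO array and 6.58 on the WT array, and was at least 1.41-fold higher. Like Sox3, Sox1 was detected on the KO array alone, so the sign of its ratio was fixed by detection.

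Sox7 and Sox18, group F factors of endothelium, had ratios of -0.44 and -0.41, opposite in sign to Sox17. Sox12, the third group C gene, was at -0.45 by its brightest probe set, 366.2 on the KO array and 500.1 on the WT array, and at 0.07 by the next. Sox13, the third group D gene, was at 0.15. Sox14, Sox15 and Sox30 were under the floor on both arrays. Of the 6 members with more than 1 probe set detected on both arrays, the ratios shared a sign in 4 on the deposited scale, namely Sox5, Sox6, Sox9 and Sox17. Over all genes, the brightest pair shared a sign in 69.4%. That asks less than agreement of every probe set, so the 2 shares are not alike. Sox6 counts as agreeing with 1 ratio as small as -0.003.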

How the data were processed

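RNA was measured on 2 arrays, 1 KO and 1 WT. The deposited values are intensities on a linear scale, summarised by the authors with MAS 5.0 per the series' design text, and 200 ng of total RNA was labelled per the labels' protocols. The MAS 5.0 version is not given in the sources used here, and no detection calls were used. Gene symbols came from the platform annotation, and all 37 Sox probe sets matched RefSeq by Entrez identifier. Of 45037 probe sets that were no controls, 34945 had 1 symbol, 932 several and 9160 none, and the last 2 kinds were not used. Scaling was kept as deposited, the floor was the 40th percentile, and called means at least 2-fold. No p-value or SE was computed. A gene in a list is its brightest probe set. Named genes were all members and Sox genes. Of each list, up to 3 with the largest ratio on both arrays and up to 2 with the largest bound were named. Prrx1, Fgf8, Dcx, Zic2, Irx3, Nes, Msi1, Ngfr, Gfra3 and Krt8 were added after their values were seen. Members and lists were chosen with earlier results of these data known. Steps were tested on simulated data, with changes larger than 2-fold added to brighter probe sets only. Bounds and changes near the floor were not tested that way. Python 3.11.15, numpy 2.4.6, pandas 2.3.3, matplotlib 3.10.9, R 4.3.3 and limma 3.58.1 were used.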

Additional observations from a re-analysis of the deposited data

How the results depend on the processing

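No paired analysis was possible because each genotype has 1 array and the labels give no replicate numbers. The count of Sox probe sets at least 2-fold higher was 2 at the deposited setting and 1 when the floor was raised to the 60th percentile, where Sox3 became a bound of 0.17. The count at least 2-fold lower was 2, and it was 7 at 1.5-fold, 1 at 3-fold, 0 with that higher floor and 1 for log2(signal + 32). Over all probe sets, 14.2% were lower at 1.5-fold and 0.584% at 3-fold. The count of members whose probe sets shared a sign, 4 of 6, was 2 of 8 for log2(signal + 32), which has no floor and so includes the dimmest probe sets. For a floor at the 30th percentile, the median log2 ratio was 2.03 for early neuron, 3.18 for endoderm and liver and 1.59 for neural progenitor genes. At the 60th percentile these medians were 1.17, 1.58 and 0.21, and that of the other Sox genes was -0.41. For log2(signal + 32) the median was 1.30 for neural progenitor and 0.88 for ectoderm genes. A higher floor raises more signals on either array and so shrinks each bound. Sox2 ran from 2.45 to 2.84 over the 5 alternatives in which both arrays were measured, and was a lower bound of 2.40 with the floor at the 60th percentile. That floor left 5 of 10 endoderm and liver and 1 of 7 somite genes past 2-fold higher and 1 of 15 endothelial genes lower. The lower floor gave 2 of 13 cartilage genes higher and 1 lower, and 1 of 6 other Sox genes higher. Over all detected probe sets, 5.95% were higher and 5.57% lower at the 30th percentile. At the 60th percentile these shares were 1.37% and 2.08%. Over all probe sets, higher calls were 46.5% of calls at the deposited scaling, 63.7% after centring and 58.2% after loess, while the Sox counts stayed at 2 and 2. No called Sox ratio changed sign under the alternatives run. Signals near the floor limit Sox3, Sox10 and the dimmer Sox5 probe sets.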

Other observations

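Sox2ot, a noncoding RNA whose gene spans Sox2, read 88.2 on the KO array and 1.22 on the WT array, at least 2.14-fold higher. Sox6os, a noncoding RNA from the strand opposite to Sox6, read 29.2 on the KO array, under the floor, and 51.3 on the WT array, at least 1.23-fold lower. Both were named after their values were seen, and neither is counted among the Sox probe sets above.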
